A study of Rattus norvegicus with 4 samples.

Results

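The expression of 8 genes of the neurotrophin and GDNF systems was examined in the neonatal rat frontal cortex after prenatal exposure to bisphenol A (BPA), a building block of polycarbonate plastic and epoxy resin. They were taken as the transcripts whose symbol in the deposited tables was Bdnf, Ntf3, Gdnf, Ntrk2, Ntrk3, Ngfr, Gfra1 or Sort1, with 1 transcript for each. All 8 genes were present among the 16819 transcripts listed for females, and 7 were present among the 16782 transcripts listed for males, which hold no entry for Gdnf. Together the tables list 17419 transcripts. Dams received BPA by gavage every day from gestational day 1 to birth, at 5000 µg per kg of maternal body weight, or the vehicle alone, which was ethanol in corn oil. Their pups, of the Wistar strain per the labels and Wistar Furth per the methods, were labelled postnatal day 1 and came from independent litters. A single RNA-seq library was deposited for each of control males, BPA males, control females and BPA females, and the methods speak of 3 pups per sex and treatment without saying whether a library pooled them. A comparison within a sex therefore set 1 library against 1 and had no replicate check.

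Neurotrophins are secreted growth factors that support the survival, growth and synaptic function of neurons. Bdnf (brain-derived neurotrophic factor) acts through TrkB, the product of Ntrk2, and Ntf3 (neurotrophin-3) acts mainly through TrkC, the product of Ntrk3. Both also bind p75NTR, the product of Ngfr, and their uncleaved precursors bind p75NTR together with sortilin, the product of Sort1. Gdnf signals through its co-receptor GFRα1, the product of Gfra1, together with the kinase Ret.

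Expression was given as FPKM, the number of sequenced fragments normalized for transcript length and library depth, so levels can be compared between genes per unit of length. The steps in the low FPKM values gave an estimated depth of 9249750 fragments in control males, 9186000 in BPA males, 8955500 in control females and 9003250 in BPA females. The number of fragments behind each value was estimated from these depths. The summed FPKM of 6 markers of cortical excitatory neurons lay between 500.02 and 538.27 in the 4 libraries, and none of the 6 was at 0. The sum hides unequal members, as Slc17a7 was at 51.08 and 56.97 FPKM in controls and at 30.0 and 32.17 FPKM after BPA (limma adjusted p = 0.0276). That call was lost without a filter on low values or without a trend in the variance, where limma called no transcript. Other marker lists moved with treatment. The 8 markers of meninges and fibroblasts summed to 449 and 590 FPKM in control males and females and to 204 and 139 FPKM in BPA males and females. The 8 markers of striatum were all higher in BPA libraries of both sexes, with sums of 90.1 and 94.6 FPKM in controls and 138 and 151 FPKM after BPA. The 3 measured markers of the olfactory bulb were all lower, with sums of 45.4 and 48.5 FPKM in controls and 12.8 and 9.52 FPKM after BPA, and Tbx21 was listed at the lowest value in BPA males.

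The 8 genes spanned a wide range of levels, with Ntrk2 and Sort1 highest and Bdnf and Gdnf lowest. In control males, BPA males and control females the order from high to low was Ntrk2, Sort1, Ntrk3, Ntf3, Gfra1, Ngfr and Bdnf, with Gdnf lowest where it was listed. In BPA females the order differed only at the bottom, where Gdnf at 0.17 FPKM stood above Bdnf at 0.15 FPKM. These values rested on 1 and 5 fragments, so that this last pair could not be ordered. Over the 4 libraries the ranges of Ntf3 (4.91 to 7.92 FPKM) and Gfra1 (3.62 to 4.91 FPKM) met, and those of the other neighbors from Ntrk2 down to Bdnf did not overlap. Ntrk2 had a higher FPKM than between 92.1% and 93.4% of the listed transcripts, whereas Bdnf had a higher FPKM than between 10.1% and 15.5% of them.

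**Figure D1:**
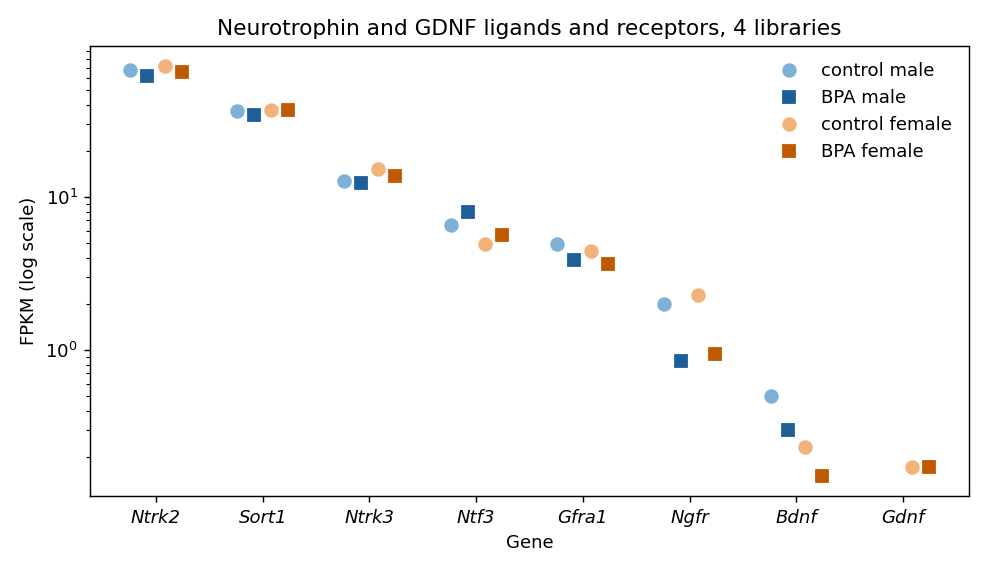
Expression level (FPKM, log scale) of the 8 genes, ordered by their mean, with 1 point for each library, circles for controls and squares for BPA. Ntrk2 lies between 61.26 and 71.21 FPKM and Bdnf between 0.15 and 0.5 FPKM, the BPA points of Ngfr lie below both control points, and Gdnf has points for females only.

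Among the ligands, no difference between BPA and control passed a test in either sex. Bdnf was scarce, with 0.5 FPKM in control males, 0.3 FPKM in BPA males, 0.23 FPKM in control females and 0.15 FPKM in BPA females. These levels correspond to 18, 11, 8 and 5 fragments. The BPA library was the lower of the 2 in each sex, but BPA males lay above control females, so the treatments overlapped. The ratio of BPA to control fragments per depth was 0.615 in males (95% exact interval 0.263 to 1.38, counting error only) and 0.622 in females (0.16 to 2.16). An exact conditional binomial test on the fragments, which compares the libraries and covers counting error only, gave adjusted p values of 0.494 and 0.658. Both a fall to 0.263 and a rise to 1.38 of the control level lay within the male interval, so that a difference of Bdnf was not detectable at this depth. Bdnf was also lower in females than in males of the same treatment, with ratios of 0.459 in controls and 0.464 after BPA, neither of which passed the exact test (adjusted p = 0.308 and 0.515).

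Bdnf is transcribed from several alternative starts, and the RefSeq promoter table of the rat build GRCr8 holds 6 windows for it, each from 250 bases before to 50 bases after a start. The deposited values give 1 level for the gene and do not separate these starts. Activity-dependent transcription of Bdnf is known to run through CREB, which binds the cAMP response element. The core of that element is CGTCA, and it was searched on both strands, as TGACG on the other strand. It was found in 1 of the 6 windows of Bdnf and in the 1 window of Gdnf, and in none of the windows of Ntf3 (3), Gfra1 (1) and Sort1 (1). The share of windows with it was 21.2% among all 33469 windows of the table, and 1.83% for the full palindrome TGACGTCA. The pair of windows that hold it are shown with the motif in capitals, at chr3:116637608-116637907 for Bdnf and chr2:58621077-58621376 for Gdnf, both on the plus strand. The first base of the motif lies at -35 from the start in Bdnf and at -49 in Gdnf. A match to these letters is not a measured binding site.
Bdnf: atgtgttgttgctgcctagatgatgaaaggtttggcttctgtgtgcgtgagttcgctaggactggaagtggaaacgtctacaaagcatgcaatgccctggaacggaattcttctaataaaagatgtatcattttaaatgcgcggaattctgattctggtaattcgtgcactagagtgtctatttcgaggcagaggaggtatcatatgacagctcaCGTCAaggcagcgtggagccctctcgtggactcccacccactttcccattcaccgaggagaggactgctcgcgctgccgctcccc
Gdnf: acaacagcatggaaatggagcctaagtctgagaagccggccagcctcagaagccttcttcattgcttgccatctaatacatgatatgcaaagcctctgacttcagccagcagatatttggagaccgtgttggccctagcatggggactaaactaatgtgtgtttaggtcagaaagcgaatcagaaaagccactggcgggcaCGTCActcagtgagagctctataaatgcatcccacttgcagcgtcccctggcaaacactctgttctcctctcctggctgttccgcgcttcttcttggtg

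Ntf3 was the most abundant of the 3 ligands. Its level was 6.52 FPKM in control males, 7.92 FPKM in BPA males, 4.91 FPKM in control females and 5.59 FPKM in BPA females. The BPA library was the higher of the 2 in each sex, and both male libraries lay above both female libraries. The ratio of BPA to control fragments was 1.21 in males (0.889 to 1.66) and 1.13 in females (0.783 to 1.65), and neither passed the exact test (adjusted p = 0.448 and 0.725). The level of Ntf3 was 13.0 and 21.3 times that of Bdnf in control males and females and 26.4 and 37.3 times in BPA males and females. Since Bdnf rested on 5 to 18 fragments, these ratios carry its counting error. Gdnf, best known for its support of dopamine and motor neurons, was at 0.17 FPKM in both female libraries, which is 1 fragment in each. A level of 3 fragments would have read between 0.507 and 0.523 FPKM for Gdnf, so its level was too low for a comparison.

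Among the receptors, Ngfr had the largest estimated difference between BPA and control, of the 7 genes listed in males and of the 8 in females. The wide counting intervals of the scarce Bdnf and Gdnf include larger differences. Ngfr encodes p75NTR, a receptor of the tumor necrosis factor receptor family that can signal for survival or for death. Its level was 1.99 FPKM in control males and 0.85 FPKM in BPA males, and 2.27 FPKM in control females and 0.94 FPKM in BPA females. Both BPA libraries lay below both control libraries, with no overlap. The fragments numbered 59, 25, 65 and 27 in the same order. Relative to depth, Ngfr was 2.34-fold lower after BPA in males (95% exact interval 1.45 to 3.91) and 2.42-fold lower in females (1.52 to 3.94). Both passed the exact fragment test, with adjusted p values of 0.0022 in males and 0.000604 in females. On the log2(FPKM + 0.5) scale the differences were -0.88 and -0.94. In contrast, Ngfr differed little between the sexes, with female to male ratios of 1.14 in controls and 1.10 after BPA.

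Cell types other than cortical neurons also express Ngfr, among them fibroblasts and cells of the meninges, and their markers were lower too. The median log2 ratio of these markers was -1.17 in males and -1.85 in females. All 8 markers of meninges and fibroblasts were lower after BPA in both sexes, none was at 0 in any library, and their sums are those given above. Of these, Igf2 was 61.22 and 61.1 FPKM in control males and females and 18.69 and 14.13 FPKM after BPA, and Col1a1 was 35.91 and 43.39 FPKM in controls and 14.95 and 12.23 FPKM after BPA. The study's methods state that the meninges were taken off before dissection. The olfactory bulb sums given above were lower as well. Sums of several other cell types were lower by less, though not all of their markers were. In control males, BPA males, control females and BPA females, the sums were 44.4, 33.3, 46.9 and 32.3 FPKM for pericytes and smooth muscle (3 of 4 markers lower in both sexes) and 77.6, 69.0, 92.4 and 56.8 FPKM for endothelium (4 of 4). Microglia summed to 26.6, 23.1, 27.2 and 16.7 FPKM (4 of 5 lower in both sexes), and oligodendrocyte lineage to 81.7, 75.2, 92.5 and 74.7 FPKM (2 of 5). The oligodendrocyte list was mixed, as 3 of its 5 markers were higher after BPA in males, while all 5 were lower in females. Cajal-Retzius cells, early neurons of the outermost cortical layer, summed to 73.1, 55.5, 77.6 and 53.9 FPKM (3 of 4 lower in both sexes), and their marker Calb2 was called lower (limma adjusted p = 0.0276). This call was lost in the same settings as that of Slc17a7. Their marker Reln was higher in BPA males, at 36.96 FPKM against 31.16 FPKM in control males (adjusted p = 1.91e-11 by the exact test). In females Reln was lower, at 40.83 FPKM in controls and 37.83 FPKM after BPA (exact test, adjusted p = 0.00446). Apart from the olfactory bulb list, none of these markers was at 0. The subplate is a transient layer under the cortical plate in which neurons carry p75NTR. Of its 3 measured markers, 1 was lower and 1 higher after BPA in both sexes, none was at 0, and they summed to 12.1, 13.5, 14.4 and 13.4 FPKM in control males, BPA males, control females and BPA females. In tissue, fewer cells of a type and less RNA per cell cannot be told apart. The part of these cell types in the difference of Ngfr was not tested.

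**Figure D2:**
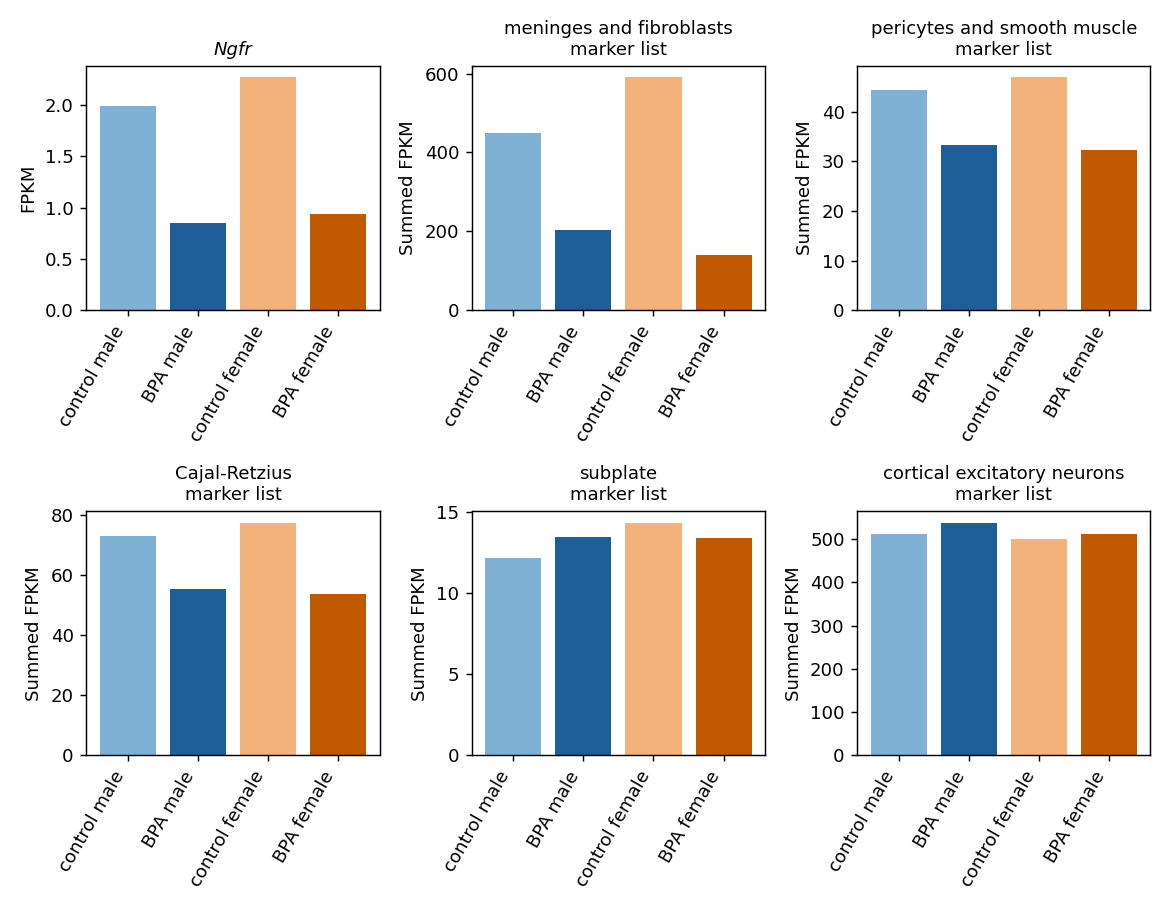
Level of Ngfr (FPKM) beside the summed FPKM of the marker lists for meninges and fibroblasts, pericytes and smooth muscle, Cajal-Retzius cells, subplate and cortical excitatory neurons, with 1 bar for each library and no error bars. Ngfr and the meningeal, pericyte and Cajal-Retzius lists are lower in both BPA libraries, while the subplate list stays between 12.1 and 14.4 FPKM and the excitatory list between 500.02 and 538.27 FPKM. Within that last list Slc17a7 was lower in both BPA libraries. Within the Cajal-Retzius list Reln was higher in BPA males (36.96 FPKM) than in control males (31.16 FPKM).

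Ntrk2 was the most abundant gene of the group. Its level was 66.99 FPKM in control males, 61.26 FPKM in BPA males, 71.21 FPKM in control females and 65.79 FPKM in BPA females. Both BPA libraries lay below both control libraries, but BPA females (65.79 FPKM) were close to control males (66.99 FPKM). The ratio of BPA to control fragments was 0.914 in males (0.871 to 0.96) and 0.924 in females (0.881 to 0.969). With 3182 to 3606 fragments for each library, these small differences passed the exact fragment test (adjusted p = 0.00219 and 0.00678). A difference of similar size was seen between the sexes within a treatment, since BPA females exceeded BPA males by a ratio of 1.07 (adjusted p = 0.0334 by the same exact test). In controls that ratio was 1.06 (exact test, adjusted p = 0.0822). With 1 library for each, a difference between the sexes and variation between libraries cannot be told apart. Besides neurons, astrocytes express Ntrk2, mostly as a truncated form that the single entry does not separate. The 5 markers of astrocytes and radial glia were all lower after BPA in both sexes, none was at 0, and their sums were 700 and 705 FPKM in controls and 588 and 503 FPKM after BPA. Their part in the difference of Ntrk2 was not tested.

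Ntrk3 was at 12.68 FPKM in control males, 12.3 FPKM in BPA males, 15.09 FPKM in control females and 13.77 FPKM in BPA females. The male libraries lay below the female libraries whatever the treatment. The ratio of BPA to control was 0.969 in males (0.839 to 1.12) and 0.912 in females (0.796 to 1.04), and neither passed the exact test (adjusted p = 0.841 and 0.375). Within a library, the level of Ntrk2 was between 4.72 and 5.28 times that of Ntrk3.

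Gfra1 was lower in both BPA libraries. Its level was 4.91 FPKM in control males and 3.86 FPKM in BPA males, and 4.43 FPKM in control females and 3.62 FPKM in BPA females, with no overlap between the treatments. The ratio of BPA to control was 0.788 in males (0.657 to 0.943) and 0.816 in females (0.674 to 0.987). The exact test on 280 and 219 fragments in males passed the threshold (adjusted p = 0.039), and that on 245 and 201 fragments in females did not (adjusted p = 0.112). The sexes were not shown to differ, as the female log2 ratio exceeded the male one by 0.05 (95% interval -0.32 to 0.42, counting error only).

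Sort1 was the second most abundant gene. Its level was 36.19 FPKM in control males, 34.09 FPKM in BPA males, 36.94 FPKM in control females and 37.0 FPKM in BPA females. The treatments overlapped, and the female libraries were nearly equal. The ratio of BPA to control was 0.942 in males (0.887 to 1.00) and 1.00 in females (0.944 to 1.06), with adjusted p values of 0.16 and 1.0 by the exact test. As Sort1 stayed close to its control level while Ngfr was lower, the level of Sort1 was 18.2 and 16.3 times that of Ngfr in control males and females and 40.1 and 39.4 times after BPA.

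Together, the exact fragment test called 3 of the 7 listed genes in males (Ntrk2, Ngfr and Gfra1) and 2 of 8 in females (Ntrk2 and Ngfr), all lower after BPA. The same test called 22.4% of all transcripts in males, with 13.5% called lower, and 23.3% in females, with 14.7% called lower. Between libraries of the same treatment it called none of the genes between control females and control males, where it called 10.7% of all transcripts, and 1 (Ntrk2) between BPA females and BPA males, where it called 13% of all transcripts. If libraries were allowed to vary by a coefficient of variation of 0.1 beyond counting error, 0 genes were called in males and 1 (Ngfr) in females, beside 3.15% and 4.55% of all transcripts with fragments in both libraries. After adding 0.5 to each FPKM, no gene of the group reached an absolute log2 ratio of 1 in either sex, a size that 4.33% of all transcripts reached in males and 5.22% in females. This rests on the added 0.5, since with 0.1 added Ngfr reached it in both sexes (-1.14 in males and -1.19 in females).

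**Figure D3:**
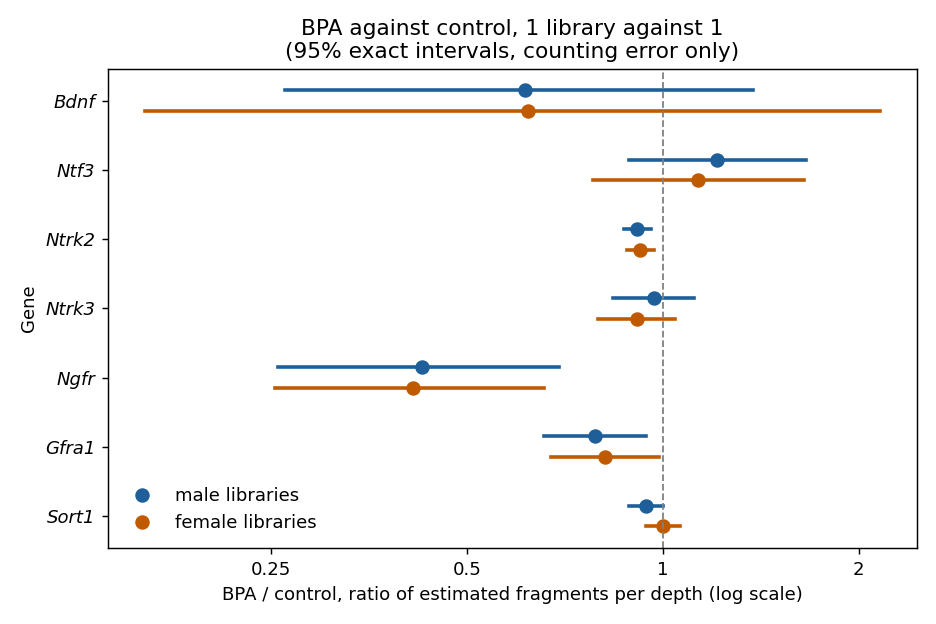
Ratio of BPA to control (log scale) for 7 genes in males and females, from estimated fragments relative to depth, with 95% exact intervals for counting error only and a dashed line at 1. Ngfr lies at 0.427 in males and 0.413 in females with intervals below 1, Ntrk2 and Gfra1 lie closer to 1, and the intervals of Bdnf, Ntf3 and Ntrk3 include 1. Gdnf is not drawn.

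To examine both sexes together, the male and the female library of a treatment were taken as its 2 replicates, as the study combined them. The methods name 6 litters over both treatments, so the 2 libraries of a treatment may share litters and need not be independent. This question was put to limma on log2(FPKM + 0.5) for the 6 genes whose FPKM averaged 1 or more. In no gene did the difference pass the threshold after adjustment over all 13162 transcripts tested, and 1 gene (Ngfr) was below 0.05 before adjustment. Among all transcripts, 74 (0.562%) passed after adjustment and 2283 (17.3%) before it. The log2 difference of Ngfr between BPA and control was -0.91 (SE 0.261, limma adjusted p = 0.183). Ngfr entered this fit only through its control libraries, since both BPA libraries were below 1 FPKM. Over the 14 alternative settings that kept Ngfr the limma adjusted p lay between 0.0539 and 0.464, and it was not tested where every library had to reach an FPKM of 1. The log2 difference was -0.29 (SE 0.149) for Gfra1, -0.12 (SE 0.0672) for Ntrk2, -0.08 (SE 0.117) for Ntrk3, -0.04 (SE 0.07) for Sort1 and 0.22 (SE 0.208) for Ntf3, with limma adjusted p values between 0.375 and 0.792. The sign turned for Ntf3 (-0.017) and Sort1 (0.017) without BPA males and for Ntrk3 (0.036) without control females, so no direction is given for these 3 genes with the sexes combined. Bdnf entered only when no filter was set, with a log2 difference of -0.24 (SE 0.231) and a limma adjusted p of 0.641. In 3 of the 6 genes (Ngfr, Ntrk2 and Gfra1) both BPA libraries lay below both control libraries, as they did in 31.9% of all transcripts tested, and in 0 genes did both lie above, as in 18.7%. The median log2 difference of the 6 genes was -0.11 in males and -0.12 in females, beside -0.04 in both sexes over all 13162 transcripts.

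To ask whether the differences depended on sex, the log2 ratios of the 2 sexes were compared. The female log2 ratio minus the male one was -0.05 for Ngfr (95% interval -0.98 to 0.89), 0.02 for Ntrk2 (-0.08 to 0.11), -0.09 for Ntrk3 (-0.37 to 0.19), -0.10 for Ntf3 (-0.77 to 0.57) and 0.09 for Sort1 (-0.03 to 0.21). All of these intervals include 0. For Bdnf the interval ran from -1.93 to 1.96, so that even a large difference between the sexes was not detectable. These intervals cover counting error only, since each sex had 1 library for each treatment.

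Other genes of the same pathways were described by a list of 70 ligands, receptors, processing enzymes, adaptors, kinases and induced transcripts, of which 65 were measured and 53 had an average FPKM of 1 or more. With both sexes combined, limma called 1 of the 53 lower and 0 higher, and the exact fragment test called 5 higher and 9 lower of the 65 in males and 8 higher and 12 lower in females. These calls were 21.5% of the list in males and 30.8% in females, beside 22.4% and 23.3% of all transcripts, and limma called 0.562% of all transcripts. The gene called by limma was Map2k1, which encodes MEK1, the kinase that activates ERK downstream of Trk receptors. Its level was 26.9 FPKM in control males, 16.78 FPKM in BPA males, 27.17 FPKM in control females and 17.35 FPKM in BPA females. The controls were nearly equal and both BPA libraries fell below them, with a log2 difference of -0.65 (SE 0.0712, limma adjusted p = 0.0384). The call was lost without the filter on low values (adjusted p = 0.124), without the trend in the variance (0.149) and with any 1 library left out, where the limma adjusted p was 0.13 without control males, 0.153 without BPA males, 0.223 without control females and 0.176 without BPA females. Over the whole list the median log2 ratio was -0.03 in males and -0.03 in females, and 23 genes were lower and 16 higher in both sexes.

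Several of the remaining ligands and receptors were near the limit of detection. Of the GDNF family ligands, Nrtn was between 0.18 and 0.35 FPKM, and Artn was at 0.58 FPKM in control males and 0.43 FPKM in control females and was listed at the lowest value in both BPA libraries. Artn thus had the only log2 ratio of -1 or less in the list (-1.11 in males), from 7 fragments against 0, and did not pass the exact test (adjusted p = 0.0649 in males and 0.106 in females). Ret, the kinase that GFRα1 recruits, was at 0.62, 0.43, 0.68 and 0.41 FPKM in control males, BPA males, control females and BPA females. It was therefore below Gfra1 in every library and, like Gfra1, lower in both BPA libraries, without passing the exact test (adjusted p = 0.513 in males and 0.243 in females).

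Of the other co-receptors, Gfra2 was at 5.0 and 4.8 FPKM in control and BPA males and at 5.82 and 4.04 FPKM in control and BPA females, where it passed the exact fragment test (adjusted p = 0.0276). Gfra4 was between 1.0 and 1.82 FPKM, and Gfra3 was at most 0.17 FPKM. Ncam1, an alternative GDNF receptor, was the most abundant of this family at 266.52 to 292.57 FPKM, and was higher after BPA in both sexes by the exact test (ratios 1.04 and 1.08, adjusted p = 0.0031 and 3.97e-10). With the sexes combined its log2 difference of 0.09 did not pass (limma adjusted p = 0.477). The relatives of sortilin were at moderate levels. Sorcs1 was at 9.87 and 8.29 FPKM in control and BPA males (adjusted p = 0.0321 by the exact test) and at 9.79 and 8.95 FPKM in females (adjusted p = 0.342), and Sorl1, Sorcs2 and Sorcs3 lay between 5.5 and 8.53 FPKM with no call in either sex.

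Of the 21 measured adaptors and kinases of Trk signaling, 6 were lower and 8 higher in both sexes. Shc1, an adaptor that links Trk receptors to Ras, was at 3.89 and 2.38 FPKM in control and BPA males and at 4.55 and 2.23 FPKM in control and BPA females. The BPA libraries lay below both controls, with a log2 difference of -0.75 (limma adjusted p = 0.134). The exact fragment test called Shc1 in both sexes (adjusted p = 0.00752 in males and 1.9e-05 in females). At the other end, Sh2b2, an adaptor of receptor kinases, was at 11.72, 14.79, 11.52 and 14.34 FPKM in control males, BPA males, control females and BPA females (log2 difference 0.31, limma adjusted p = 0.165). The fragment test called it in both sexes (exact test, adjusted p = 0.0152 and 0.0276). Tnfrsf19, a relative of p75NTR, had a log2 difference of 0.19 (limma adjusted p = 0.392) and was called by the exact test in males (adjusted p = 0.0135) but not in females (0.713), a difference between the sexes that was not tested. Without BPA males its combined log2 difference was 0.12. Of 9 transcripts that neurotrophins are known to induce, 4 were lower in both sexes and 0 were higher in both. Among them Fos, an immediate early gene, had the lowest combined difference among the list's genes tested by limma, at 1.49 and 0.57 FPKM in control and BPA males and 2.92 and 1.24 FPKM in control and BPA females (log2 difference -0.94, limma adjusted p = 0.297). That place depended on single libraries, since the difference was -0.58 without BPA males, when Shc1 (-0.79) and Map2k1 (-0.63) were lower, and -0.54 without control females, when Shc1 (-0.65) and Map2k1 (-0.64) were lower. Fos passed the limit on mean FPKM mainly through its controls, since BPA males were at 0.57 FPKM and BPA females at 1.24 FPKM. It was not tested where every library had to reach an FPKM of 1. The exact test on its 8 to 40 fragments gave adjusted p values of 0.091 in males and 0.0129 in females. Of the 5 measured regulators of Bdnf transcription, 3 were lower and 2 higher in both sexes. Among them, Creb1, which encodes CREB, was at 16.31 and 14.14 FPKM in control and BPA males (adjusted p = 0.000735 by the exact test) and at 16.09 and 15.44 FPKM in females (adjusted p = 0.47).

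**Figure D4:**
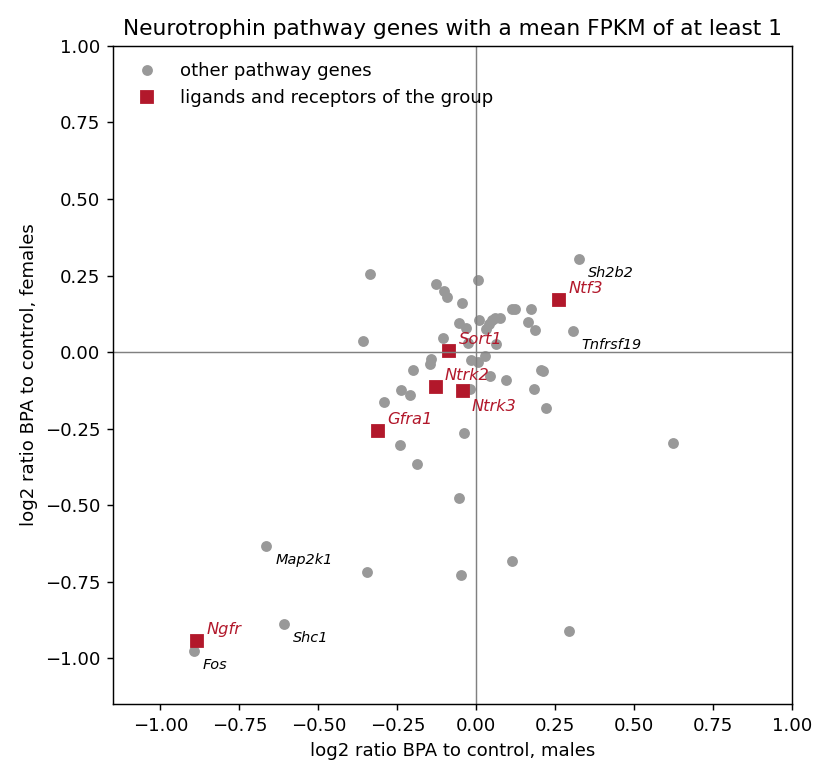
Log2 ratio of BPA to control, with 0.5 added to each FPKM, in males (horizontal axis) and females (vertical axis). Red squares are the 6 genes of the group and grey points the 53 other pathway genes above the same limit, a mean FPKM of 1. Ngfr lies at -0.88 and -0.94 near Fos and Shc1, whereas Ntrk2, Ntrk3 and Sort1 lie close to 0 on both axes.

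The transcripts whose pattern over the 4 libraries was closest to that of Ngfr were sought among those above the same limit, by the root mean square difference of their centered log2(FPKM + 0.5). The closest was Bmp6, a secreted growth factor of the BMP family, at 6.66, 3.5, 7.5 and 3.88 FPKM in control males, BPA males, control females and BPA females (root mean square difference 0.0325 on the log2 scale). Clybl, a mitochondrial lyase, followed at 2.45, 1.1, 2.82 and 1.31 FPKM (0.0351). The third was an assembled transcript without a gene symbol at 1.83, 0.84, 2.15 and 0.93 FPKM (0.0365). With only 4 libraries, many transcripts can lie this close, and these are given as a description.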

How the data were processed

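RNA-seq was measured in 4 libraries, 1 for each sex and treatment. The authors selected mRNA with oligo(dT), mapped reads to the rat genome rn6 with Bowtie 2, and deposited FPKM calculated with RSEM, normalized for length and depth. The submitters' processing notes also name HISAT, and versions were not given in the sources used here. The authors' Poisson comparison covers counting error only and its values were not used.

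The FPKM are not counts. They have 2 decimals, and the lowest value listed, 0.01, was taken as 0. The depth of each library was the number of fragments that brought FPKM times effective length (length minus 60 bases) closest to whole numbers, and 83.6% to 85.8% of 1028 to 1084 scarce transcripts came within 0.1 of a whole number. Within a sex the resulting fragments were compared by an exact conditional binomial test, two-sided, with Benjamini-Hochberg adjustment over all transcripts of the pair. The test, its intervals and limits cover counting error only. With the sexes combined, limma 3.58.1 (R 4.3.3) was fitted to log2(FPKM + 0.5) with treatment as the only term, a trend in the prior variance and a mean FPKM of at least 1, which leaves 2 residual degrees of freedom. FPKM were summed by symbol, and adding 0.5 makes the log2 ratios of scarce genes smaller. Both tests were tested on simulated data. Where the simulated libraries varied beyond counting error, the fragment test also called transcripts that had been given no change.

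The members and lists were chosen with earlier results of these data known. From the pathway list the ligands and receptors were named (some are not reported here), each gene with a limma adjusted p under 0.05 or an absolute log2 ratio of at least 1 in either sex, and the 2 highest and 2 lowest combined log2 ratios. Creb1 and the marker genes printed were chosen after their values were seen. For likeness to a pattern, the gene with the largest summed absolute log2 ratios was used, with the 3 closest transcripts. Of the 13 marker lists, those whose cells are named beside a result are printed. Promoter windows came from RefSeq (GRCr8), where 5 of the 8 genes had 12 windows.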

Additional observations from a re-analysis of the deposited data

Results flagged for a closer look

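Sort1 is given here because its log2 ratio of BPA to control had opposite signs in the sexes, at -0.09 in males and 0.0023 in females. The female value is close to 0. Beyond counting error the difference between the sexes was not tested, and its counting interval of -0.03 to 0.21 includes 0.

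The second item lies outside the entries used for the comparisons. An assembled transcript that the files annotate as Gfra1 was at 0.48 FPKM in BPA males, from 3 fragments, at 0.28 FPKM in control females and 0.25 FPKM in BPA females, and at the lowest listed value of 0.01 in control males. A second such transcript was at 0.7 FPKM in control males, 0.21 FPKM in control females and 0.2 FPKM in BPA females, and at 0.01 in BPA males. With both added to Gfra1, its limma difference still did not pass the threshold.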

How the results depend on the processing

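The limits are those of 1 library for each sex and treatment, with depth known only by estimate. No pairing by animal or litter was possible, as the labels give none. Sex as a second term in limma, which sets BPA against control within each sex, left 0 of the 6 genes called. Each symbol had 1 entry, so summing by symbol and taking each transcript on its own gave the same values. Leaving out a library leaves 1 residual degree of freedom, and the lone library of a treatment is then assumed to vary like the others.

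With 0.1 in place of 0.5 added to FPKM, 1 gene (Ngfr) reached an absolute log2 ratio of 1 in males (-1.14) and 1 in females (-1.19). With 5 added, the log2 ratio of Ngfr was -0.26 in males and -0.29 in females. The 74 transcripts called by limma became 0 without the filter on low values (2628 before adjustment), 188 when every library had to reach an FPKM of 1 (Ngfr not among those tested), 477 among transcripts with an NCBI Gene ID, and 0 without the trend (2055 before adjustment). Leaving out 1 library gave between 0 and 6, with 3 without control males, 0 without BPA males (1808 before adjustment), 6 without control females and 0 without BPA females (1898 before adjustment). The causes were not tested. When libraries could vary by a coefficient of variation of 0.1, the fragment test called 0 genes of the group in males (486 transcripts in all) and 1 in females (700 in all). With 1 library left out, the combined log2 difference of Ntf3 (0.22) ranged from -0.017 without BPA males to 0.45 without BPA females, that of Sort1 (-0.04) from -0.10 without BPA females to 0.017 without BPA males, and that of Ntrk3 (-0.08) from -0.21 without control males to 0.036 without control females. That of Ntrk2 (-0.12) ranged from -0.17 without BPA females to -0.070 without BPA males, and was -0.077 without control females. The signs of the first 3 turned in differences that passed no test. The combined log2 difference of Ngfr stayed between -0.99 and -0.84 with any library left out. Median-ratio scaling raised the log2 ratios of BPA to control slightly, and that of Ntrk2 became -0.093 in males (-0.13 as reported) and -0.070 in females (-0.11 as reported). Map2k1 was called by limma under 9 of 15 alternatives, and Shc1 under 1 (adjusted p = 0.0427 among transcripts with an NCBI Gene ID). In the other 241 comparisons of single genes and 34 of counts, the direction and the side of the threshold were as reported or the value moved by less than the stated spread.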
